A study of Bos taurus with 79 samples.

Results

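PLET1, placenta-expressed transcript 1, was followed through the estrous cycle and early pregnancy in cattle, in endometrial RNA from 79 heifer samples of crossed beef breeds, each hybridized to an Affymetrix bovine array. The members were the probe sets whose platform annotation gives PLET1 (gene identifier 505518) as the only symbol, 2 of 24016 probe sets and 1 of 9155 named genes. PLET1 was chosen for description from measured values of these arrays, among them its day 16 difference between pregnant and cyclic heifers, so its levels and differences are given as a description with standard errors and without a test. Probe set 1 had the higher mean and stands for the gene unless probe set 2 is named. The identifier of probe set 2 carries the suffix that Affymetrix gives to probe sets whose probes match more than a single transcript.

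Heifers were synchronized for estrus, were either inseminated and found pregnant or kept cyclic, and were slaughtered on day 5, 7, 13 or 16. On each day there were 4 groups: PH, pregnant with high progesterone; PN, pregnant with normal progesterone; CH, cyclic with high progesterone; and CN, cyclic with normal progesterone. High progesterone came from a progesterone-releasing intravaginal device (PRID) inserted on day 3 and left in place until slaughter, and the other heifers carried no device. There were 5 arrays in 15 of the 16 groups and 4 in CH of day 7. Arrays are named by group and replicate number, such as PH 4 of day 16, and all levels below are deposited log2 expression values.

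The product of PLET1 is known from the mouse as a glycoprotein held on the cell surface by a glycosylphosphatidylinositol (GPI) anchor. Antibodies against it mark progenitor cells of the thymic epithelium and cells of the hair follicle, and its transcript was named for its expression in the mouse placenta and its precursor tissue. In cattle the conceptus elongates before it attaches and secretes interferon tau, which acts on the endometrium and raises interferon-stimulated genes there. Progesterone prepares the same tissue to secrete histotroph, the mixture of proteins and nutrients on which the conceptus depends at that stage.

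The arrays had medians between 4.71 and 5.12, and 32.2% of all probe sets had a mean under 3, where PLET1 lay in most groups. Defining markers of epithelium were high on all 79 arrays, with EPCAM, an epithelial adhesion protein, at 12.04 to 13.64 and KRT18, a keratin, at 8.95 to 10.73. The stromal marker DCN, a matrix proteoglycan, lay at 13.60 to 14.40. The mean of 38 measured interferon-stimulated genes on day 16 was 7.93 to 10.36 on the 10 pregnant arrays and 6.17 to 6.56 on the 10 cyclic arrays, so it matched the labels. Of these pregnant arrays PH 5 had the lowest value, and its MX2, an antiviral GTPase, was at 5.06, against 9.46 to 11.22 on the other PH arrays and 2.05 to 2.74 on the cyclic arrays. A strip of endometrium holds many cell types, and a change in the number of cells of a type cannot be told apart from a change in RNA per cell. Of the arrays on which PLET1 was raised, CH 3 of day 5 and PH 1 of day 13 stood far from their group mean over all probe sets, and PH 1 of day 13 also had a narrow distribution.

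On days 5 and 7 PLET1 was at the bottom of the scale on nearly every array. Of 39 arrays, 38 lay between 2.06 and 2.29, with a median of 2.09. The exception was CH 3 of day 5 at 5.17, which left the CH group of day 5 at 2.72 ± 1.37 (SD, n = 5). The other group means of these days lay between 2.08 and 2.14. Probe set 2 showed the same array apart, at 4.42, and the remaining 38 arrays lay between 2.32 and 2.88. The mean of 23 leukocyte markers on CH 3 of day 5 was 7.71, against 4.56 to 5.28 on the other CH arrays of that day, and its PTPRC, the pan-leukocyte phosphatase CD45, was the highest of all 79 arrays at 11.18. The part of leukocytes in its PLET1 value was not tested.

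On day 13 PLET1 left that floor in single animals of 3 groups. The PH arrays read 6.09, 2.35, 2.38, 2.08 and 5.20, and the PN arrays read 2.12, 2.08, 2.09, 2.09 and 2.09. The CH arrays read 3.23, 2.11, 2.40, 4.70 and 2.11, and the CN arrays read 2.61, 2.09, 2.08, 3.31 and 2.09. High values thus fell on PH 1, PH 5, CH 1, CH 4 and CN 4, all 5 PN arrays were at the floor, and each of the other groups overlapped it. Group means were 3.62 ± 1.88 in PH, 2.09 ± 0.01 in PN, 2.91 ± 1.10 in CH and 2.44 ± 0.54 in CN (SD, n = 5 each). In probe set 2 PH 1 read 3.10, PH 5 read 3.44 and CH 4 read 4.66, while CN 4 read 2.76 and CH 1 read 2.69.

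On day 16 most high values of the series were found, nearly all of them in pregnant heifers. The PH arrays read 8.14, 8.64, 8.14, 11.47 and 2.27, and the PN arrays read 2.64, 2.75, 2.09, 7.77 and 4.65. The CH arrays read 2.87, 2.08, 2.69, 2.27 and 2.44, and the CN arrays read 2.08, 2.24, 2.09, 3.69 and 2.08. All PH arrays but PH 5 lay above every PN, CH and CN array, whereas PH 5 lay inside the range of the cyclic arrays. The PN group was itself divided: PN 4 and PN 5 lay above all 10 cyclic arrays, and PN 1, PN 2 and PN 3 lay among them. Group means were 7.73 ± 3.35 in PH, 3.98 ± 2.33 in PN, 2.47 ± 0.32 in CH and 2.43 ± 0.70 in CN (SD, n = 5 each).

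**Figure D1:**
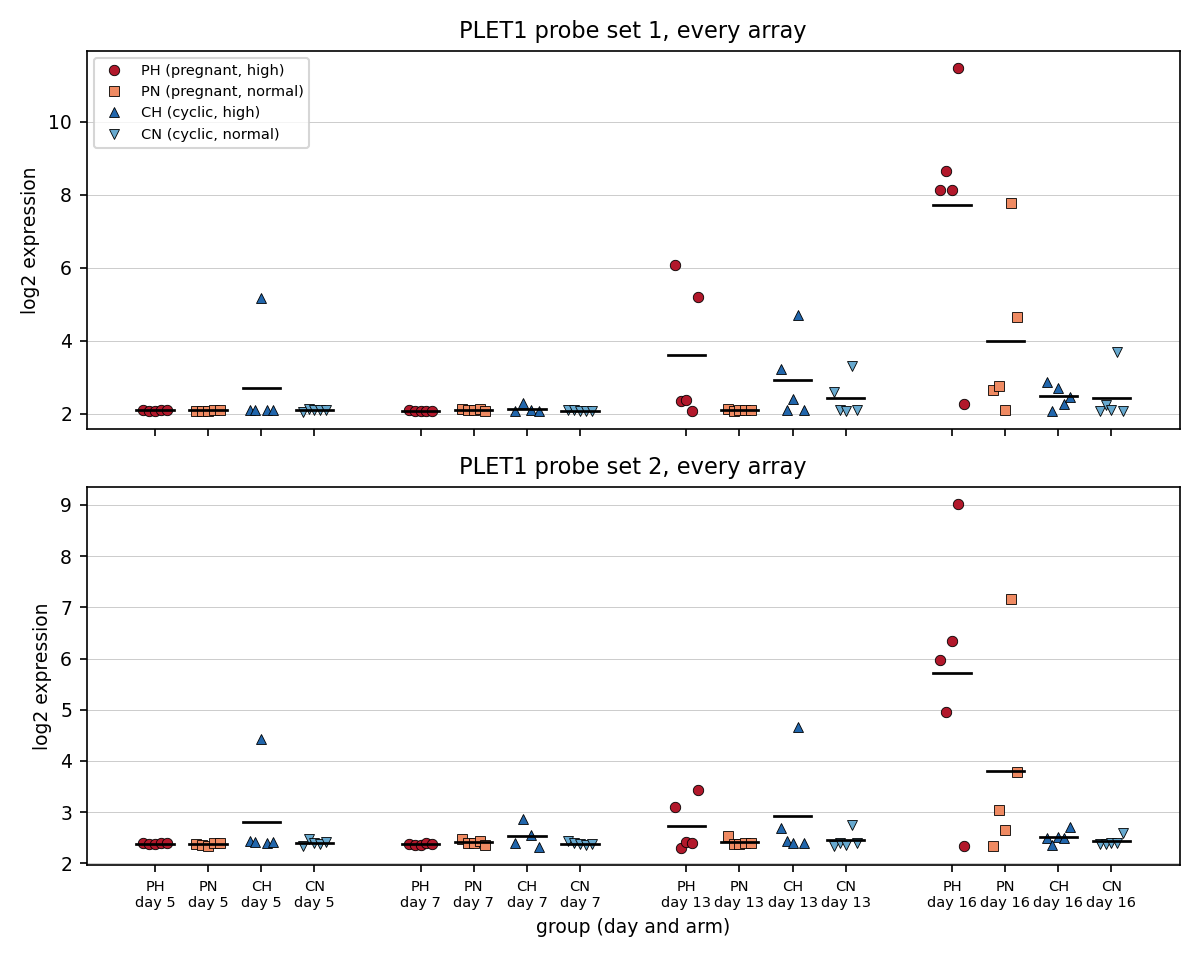
PLET1 on every array in log2 expression, probe set 1 above and probe set 2 below, with the 16 groups from day 5 to day 16 and, within a day, PH, PN, CH and CN; points are arrays and lines are group means. Arrays of days 5 and 7 sit at the floor apart from CH 3 of day 5, and on day 16 the PH arrays except PH 5 reach 8.14 to 11.47 in probe set 1.

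Probe set 2 showed a similar pattern over a smaller range. On day 16 its PH arrays read 5.96, 4.96, 6.35, 9.02 and 2.35, its PN arrays read 2.35, 3.05, 2.65, 7.17 and 3.78, and the 10 cyclic arrays lay between 2.36 and 2.71. PH 4 and PN 4 were thus highest in their groups in both probe sets and PH 5 was at the floor in both, but in probe set 2 PN 4 lay above every PH array except PH 4. Over the 79 arrays the probe sets had a Pearson r of 0.95 and a Spearman rho of 0.70, the lower rank value coming with the many arrays at the floor of both, and over the 10 pregnant arrays of day 16 the values were 0.95 and 0.85. These are given as a description, since both probe sets were read from the same hybridizations. A level of 3 or more was passed by 13 arrays in probe set 1, by 11 in probe set 2 and by 10 in both. Of these 10, 6 were pregnant arrays of day 16, 3 were arrays of day 13 and 1 was of day 5, and 2 came from cyclic heifers.

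Ranked by mean, the groups ran from PH of day 16 at 7.73 through PN of day 16 at 3.98, PH of day 13 at 3.62, CH of day 13 at 2.91 and CH of day 5 at 2.72 to CH of day 16 at 2.47. The remaining 10 groups lay between 2.08 and 2.44. Of the 15 gaps between neighbours in this order, the gap of 3.75 between PH and PN of day 16 was the only one larger than the larger SD of its pair, and even there the arrays overlapped. In probe set 2 that gap was 1.93 with a larger SD of 2.41, so no neighbours in the order differed beyond their spread.

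On day 16 the pregnant groups had more PLET1 than the cyclic groups, and the estimate was larger at high progesterone. Averaged over progesterone, the difference of pregnant minus cyclic was 3.40 ± 0.55 (SE) in probe set 1 and 2.29 ± 0.38 in probe set 2. At high progesterone, PH minus CH was 5.26 ± 0.77 and 3.21 ± 0.54 in these probe sets. At normal progesterone, PN minus CN was 1.55 ± 0.77 and 1.37 ± 0.54. Without PN 4 of day 16 the value of probe set 1 was 0.60. These standard errors come from 1 spread shared by all 16 groups, and since most groups sat at the floor, a fit of day 16 alone gave SEs of 0.90 for the average and 1.27 for each arm. On the earlier days the averaged difference was -0.32 ± 0.55 on day 5, -0.02 ± 0.56 on day 7 and 0.18 ± 0.55 on day 13. The day 5 value rests on CH 3 and was between -0.40 and -0.01 when each array was left out in turn. The increase of the averaged difference between day 13 and day 16 was 3.22 ± 0.77.

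High progesterone went with more PLET1 in the pregnant heifers of day 16 and not in the cyclic ones. PH minus PN was 3.75 ± 0.77 in probe set 1 and 1.93 ± 0.54 in probe set 2, while CH minus CN was 0.04 ± 0.77 and 0.08 ± 0.54. The difference between these, the interaction, was 3.71 ± 1.10 in probe set 1 and 1.84 ± 0.77 in probe set 2, with an SE of 1.79 for probe set 1 when day 16 was fitted alone. Without PH 5 of day 16, PH minus PN was 5.12 and the interaction 5.08, and with each other array left out in turn these values went down to 2.82 and 2.78. Among all 24016 probe sets only 2 had a larger PH minus PN difference than probe set 1 of PLET1. They were LOC515676 at 4.69 ± 1.25 and an unnamed probe set at 4.43 ± 2.05, named here after their values were seen. Probe set 2 of PLET1 at 1.93 was not among the 6 largest. The rank is a description, since PLET1 was chosen from measured values of these arrays. On day 13 PH minus PN was 1.53 ± 0.77 in probe set 1 and 0.32 ± 0.54 in probe set 2, and CH minus CN was 0.47 ± 0.77 and 0.47 ± 0.54. Averaged over status, the progesterone difference was 0.31 ± 0.55 on day 5, 0.01 ± 0.56 on day 7, 1.00 ± 0.55 on day 13 and 1.90 ± 0.55 on day 16. The day 5 value lay between 0 and 0.39 when each array was left out in turn, with 0.00 reached without CH 3.

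Followed over days, the change in PLET1 from day 5 to day 7 was -0.01 in PH, 0.01 in PN and -0.01 in CN (SE 0.77 each), and -0.58 ± 0.82 in CH, where CH 3 of day 5 was the high array. From day 7 to day 13 the changes were 1.54 ± 0.77 in PH, -0.01 ± 0.77 in PN, 0.77 ± 0.82 in CH and 0.35 ± 0.77 in CN. From day 13 to day 16 they were 4.11 ± 0.77 in PH, 1.89 ± 0.77 in PN, -0.44 ± 0.77 in CH and -0.00 ± 0.77 in CN. These SEs also come from the spread shared by all groups, which is wider than that of the groups at the floor. Fits of only the days concerned gave SEs of 0.50 for PH from day 7 to day 13 and 1.03 for each group from day 13 to day 16. By day 13 the level had left the floor in single animals of PH, CH and CN, and PH of day 16 was higher again apart from PH 5. PN was still at the floor on day 13, and on day 16 PN 4 and PN 5 stood above the cyclic arrays while the other 3 PN arrays lay among them. Both PH values after day 7 depend on single arrays, since the change from day 7 to day 13 lay between 0.93 and 1.93 and that from day 13 to day 16 between 3.17 and 5.48 with each array left out in turn. The change in PN from day 13 to day 16 fell to 0.94 without PN 4 of day 16.

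Within the pregnant groups of day 16 the arrays with more PLET1 had lower stromal markers and, less evenly, higher interferon-stimulated genes. The deviations of PLET1 from the group mean were compared with those of 7 list means over these 10 arrays. Pearson r and Spearman rho are given as a description without a test, since PLET1 was chosen with its values on these arrays known and all lists share the same arrays. For the mean of 12 stroma markers, r was -0.93 and rho was -0.85. The stroma mean was lowest on PH 4 at 10.44, where PLET1 was highest, and highest on PH 5 at 11.20, where PLET1 was lowest in its group. Without these, the 2 arrays farthest from the median of the stroma mean, r was -0.77 and rho -0.64.

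For the mean of the interferon-stimulated genes r was 0.81 and rho was 0.61. Without PH 4 and PH 5, the farthest arrays in this list as well, r was 0.37 and rho 0.48, so the size of this r rests on them. Single arrays show how far the values can part: PN 3 had an interferon mean of 9.43 with PLET1 at 2.09, and PN 4 had 9.44 with PLET1 at 7.77. Outside the pregnant arrays of day 16, 5 arrays had an interferon mean above the 7.93 of PH 5 of day 16. PLET1 was at the floor on 4 of them, CN 1 of day 7 with an interferon mean of 8.87, PH 2 of day 7 with 8.56, PN 4 of day 13 with 8.31 and CH 1 of day 5 with 8.06. On the other, PH 1 of day 13 with an interferon mean of 8.43, PLET1 was at 6.09, and CH 3 of day 5, with PLET1 at 5.17, came next below PH 5 of day 16 at 7.82. A raised interferon mean was thus found both with and without raised PLET1.

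**Figure D2:**
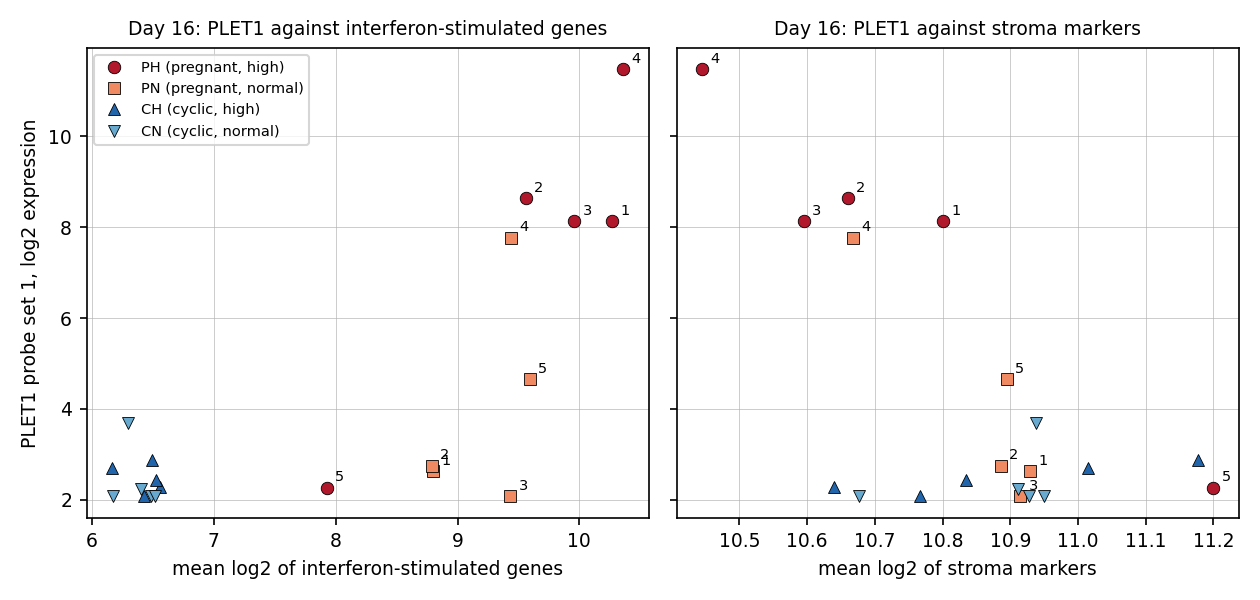
PLET1 (probe set 1, log2 expression) on the 20 arrays of day 16 against the mean log2 of 38 interferon-stimulated genes at left and of 12 stroma markers at right; points are arrays, symbols are groups, and numbers are the replicates of PH and PN. PH 4 combines the highest PLET1 with the highest interferon and lowest stroma mean, and PH 5 has PLET1 at 2.27 with the lowest interferon mean of the pregnant arrays.

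Of the other lists on these 10 arrays, smooth muscle markers had r = -0.76 and rho = -0.72, endothelial markers -0.73 and -0.64, and trophoblast markers 0.72 and 0.82. Without the 2 farthest arrays of each list r and rho were -0.48 and -0.38 for smooth muscle, -0.83 and -0.95 for endothelium, and 0.62 and 0.52 for trophoblast. Epithelial markers gave r = 0.30 and rho = 0.28, and leukocyte markers 0.62 and 0.44. Over all 79 arrays r was closer to 0 for every list, with -0.46 for stroma, 0.40 for interferon-stimulated genes, 0.37 for leukocytes, 0.27 for trophoblast markers, -0.32 for endothelium, -0.26 for smooth muscle and 0.10 for epithelium. On the 69 arrays other than the pregnant ones of day 16, r was -0.19 for stroma, 0.29 for interferon-stimulated genes and 0.50 for leukocytes, with a rho of 0.33 for leukocytes. Over all 79 arrays, leaving out the 2 farthest in the leukocyte mean, CH 3 of day 5 and CN 5 of day 7, lowered the leukocyte r to 0.28. The marker means moved with PLET1 in this way, and the part of tissue composition in the PLET1 differences was not tested.

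The genes most like PLET1 over the 16 groups included several that respond to interferon. Likeness was the Pearson r of group means among 833 genes whose group means spanned at least 2 log2 units, and it is a description without a test, since the points share arrays with PLET1 and PH of day 16 weighs heavily. The highest values belonged to IFIT2, an interferon-induced antiviral protein, at 0.94, HERC6, a ubiquitin ligase family member, at 0.92, SHISA5, a membrane protein, at 0.91, and FOXS1, a forkhead transcription factor, at 0.91. IDO1, the tryptophan-degrading enzyme, GNGT2, a G protein gamma subunit, and GBP5, a guanylate-binding protein, each had 0.90, and LOC510377 had 0.89. Of these 8 genes, 3 were in the list of interferon-stimulated genes, as were 34 of the 833 genes compared. That list is high in the pregnant groups of day 16, so the span required of a gene and the day 16 peak of PLET1 favour its members here. Without day 16, over 12 groups, r was 0.61 for IFIT2, 0.66 for SHISA5, 0.06 for HERC6 and -0.14 for GNGT2. At the other end stood COL4A4, a basement membrane collagen chain, at -0.85, the nuclear protein TOX at -0.77, LOC508666 at -0.75, the GPI-anchored co-receptor CRIPTO at -0.74 and AXIN2, an inhibitor of Wnt signalling, at -0.74.

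**Figure D3:**
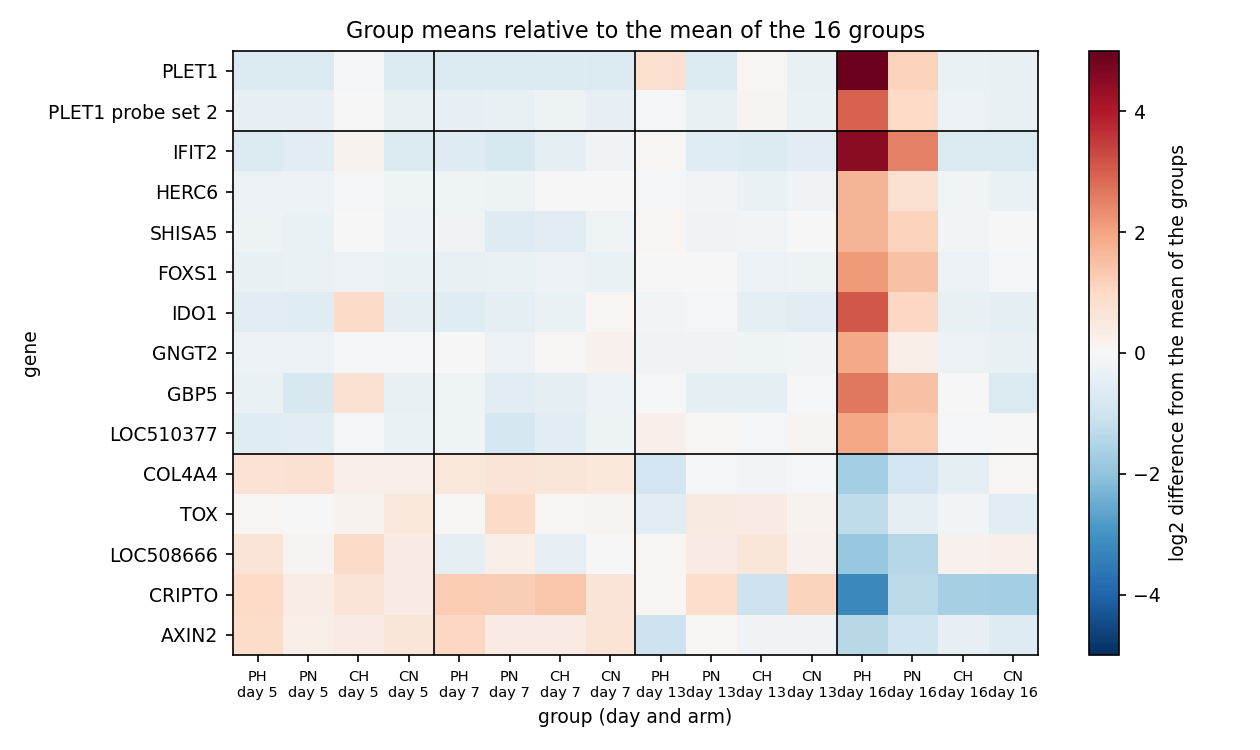
Group means of both PLET1 probe sets, the 8 most like and the 5 least like genes, each minus its own mean over the 16 groups (log2 difference, red higher, blue lower), with groups from day 5 to day 16 and PH, PN, CH and CN within a day. The like genes share a peak in PH of day 16 and a smaller rise in PN of day 16, and the least like genes are lowest in PH of day 16.

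The day 16 difference between PH and PN is given for PLET1 beside that of named interferon-stimulated and other pregnancy genes. PH minus PN was 0.34 ± 0.99 for MX2 and 0.19 ± 1.09 for ISG15, the ubiquitin-like modifier, beside 3.75 ± 0.77 for PLET1, with PH 5 the lowest PH array for MX2 and for PLET1. Their pregnancy differences averaged over progesterone were 7.03 ± 0.70 and 6.20 ± 0.77, beside 3.40 ± 0.55 for PLET1. DKK1, a secreted Wnt antagonist, had PH minus PN of 0.09 ± 0.68 and LGALS9, a galectin, 0.48 ± 0.43. Closer to PLET1 were IDO1 with 2.08 ± 0.67, IFIT2 with 1.99 ± 0.62 and GNGT2 with 1.57 ± 0.32. These differences between genes were not tested against each other. PGR, the progesterone receptor, lay between 2.04 and 2.85 on the pregnant arrays of day 16, too near the floor for its differences to be read.

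**Figure D4:**
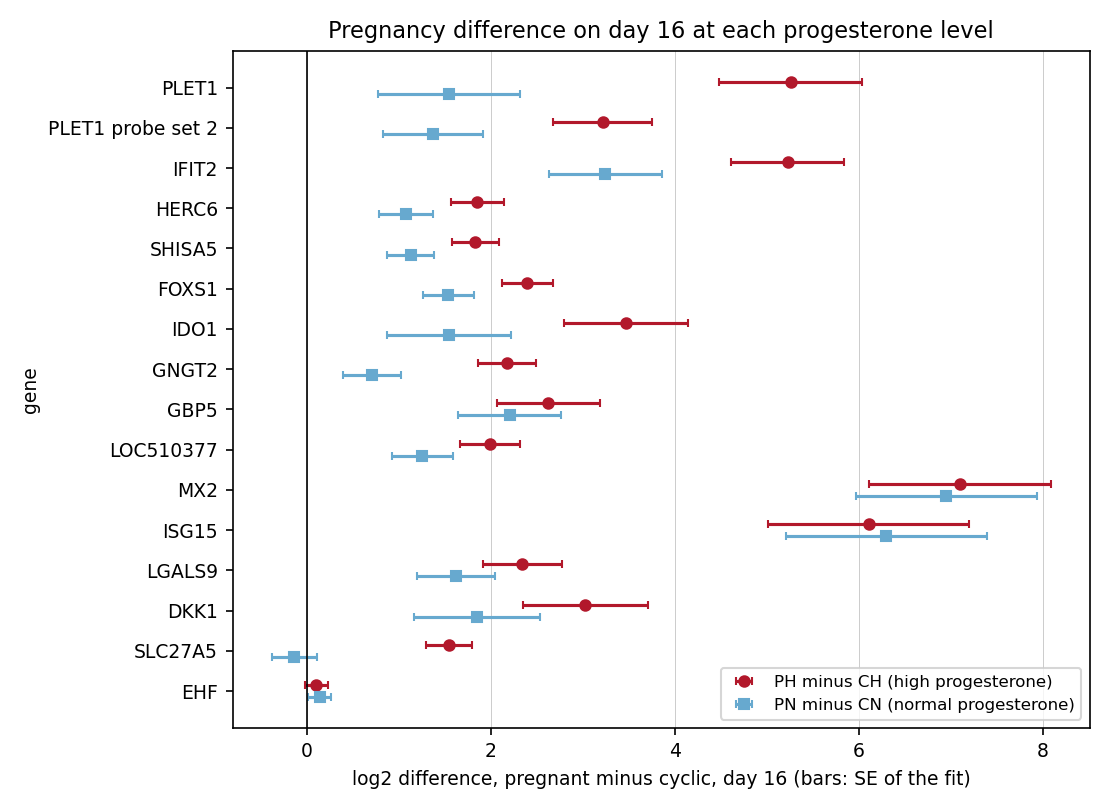
Day 16 difference between pregnant and cyclic heifers in log2 units at high progesterone (PH minus CH, circles) and at normal progesterone (PN minus CN, squares) for PLET1 and named genes; bars are SEs of the fit over all arrays. PLET1 stands at 5.26 and 1.55, while MX2, ISG15 and GBP5 have bars that overlap between the arms.

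IFIT2 and PLET1 had the same lowest array in PH but ordered the PN arrays differently. On day 16 it read 10.17, 8.66, 8.52, 9.65 and 3.44 on the PH arrays and 5.70, 4.54, 5.95, 6.24 and 8.09 on the PN arrays, and it lay between 2.76 and 2.94 on the cyclic arrays. Unlike PLET1, it was above all cyclic arrays on every pregnant array, PH 5 included. On day 13 IFIT2 was raised on PH 1 at 6.37, whereas PH 5 with PLET1 at 5.20 and CH 4 with PLET1 at 4.70 had IFIT2 at 2.86 and 2.82. IDO1 read 8.60, 6.54, 6.13, 8.88 and 3.50 on the PH arrays of day 16 and 3.14, 4.15, 4.57, 5.45 and 5.94 on the PN arrays.

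Within groups, over all 79 arrays and 9154 other genes, the deviations most like those of PLET1 were those of SLC27A5, a bile acid and fatty acid CoA ligase, with r = 0.71. IFIT2 followed with 0.69, EHF, an epithelial transcription factor of the ETS family, with 0.67, HERC6 with 0.65 and FOXS1 with 0.63, all as a description. SLC27A5 read 4.18, 3.96, 4.06, 6.30 and 2.58 on the PH arrays of day 16 and 2.58, 2.58, 2.59, 3.24 and 2.67 on the PN arrays, so its ordering put PH 4 and PN 4 first in their groups as PLET1 did. Its PH minus PN difference was 1.48 ± 0.25 and its CH minus CN difference -0.20 ± 0.25. EHF did not show a group difference of that kind, with PH minus PN of 0.11 ± 0.13, but read 3.95 on PH 4 and 4.01 on PN 4, its highest values on the day 16 arrays. Without the pregnant arrays of day 16 (69 arrays) r was 0.37 for SLC27A5, 0.56 for IFIT2, 0.43 for EHF, 0.29 for HERC6 and 0.11 for FOXS1.

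The gene lists set PLET1 in its tissue on day 16. In the limma fit over all probe sets, the averaged pregnancy difference passed an adjusted p under 0.05 upwards in 2.13% and downwards in 1.03% of the 24016 probe sets, with a median difference of -0.02 over all of them. The 759 calls in both directions were 374 with day 16 alone, 3663 with array weights, 488 without PH 4 and 1273 without PH 5 of day 16. Of 38 measured interferon-stimulated genes, 36 rose, 1 fell and 1 did not pass, with a median difference of 2.89. HERC5, in humans the ligase that attaches ISG15, went down at -0.77 ± 0.19 (limma adjusted p = 0.00769). PLET1 at 3.40 in probe set 1 thus lay above the median of this list, whereas its smaller difference in probe set 2 lay below that median. Both lay below MX2, RSAD2, an antiviral enzyme, at 6.24 ± 0.70, and ISG15. Of 33 genes of histotroph and progesterone response, 4 rose and none fell: the chemokine CXCL10 at 3.46 ± 0.59, DKK1 at 2.44 ± 0.48, LGALS9 at 1.98 ± 0.30 and the fatty acid binding protein FABP3 at 1.77 ± 0.49, with a list median of 0.23.

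Few of the surface proteins that share the GPI anchor of PLET1 passed. Of 40 measured GPI-anchored proteins only LY6E rose, at 1.68 ± 0.29 (limma adjusted p = 3.90e-05), a share near the background, and the list median was -0.02. Of 18 genes of GPI anchor synthesis and processing only GPLD1 rose, a phospholipase that cleaves GPI anchors, at 1.58 ± 0.43 (limma adjusted p = 0.0216), with a list median of -0.03. Of 5 measured genes of epithelial progenitors 0 passed in limma and 0 had an unadjusted p under 0.05. Among cell type lists CLDN4, a tight junction protein, was the only one of 15 epithelial markers to rise, at 0.98 ± 0.26 (limma adjusted p = 0.0196). Of 12 stroma markers COL1A2 and COL3A1 fell by 0.40 and 0.38, of 14 endothelial markers 5 fell, by 0.39 to 1.00, and of 23 leukocyte markers C1QC, C1QB and FCER1G rose by 1.41, 1.23 and 0.87. None of 8 smooth muscle markers passed in limma. At an unadjusted p under 0.05, 2 of them fell, but the share of all probe sets at that level was not counted. In lists of 5 and 8 genes, 0 calls is also near the background shares.

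In PN the step from day 13 to day 16, where PLET1 changed by 1.89 ± 0.77, was also a step for interferon-stimulated genes. Of the 38 measured, 28 rose and none fell, against 0.974% of all probe sets that rose and 0.812% that fell in this comparison, with a list median of 2.11. The 429 calls over all probe sets were 1183 with array weights, 283 without PN 4 of day 16 and 263 without PN 1 of day 13. MX2 rose by 5.78 ± 0.99 (limma adjusted p = 0.00012), RSAD2 by 4.59 ± 0.99 and ISG15 by 4.32 ± 1.09. Of the 40 GPI-anchored proteins 2 fell, CRIPTO by 2.21 ± 0.62 and the ephrin EFNA4 by 0.77 ± 0.17, and none rose. Both also fell in the cyclic CN group over these days, with changes of -2.80 ± 0.62 and -0.69 ± 0.17, so their fall was not particular to pregnancy. GPLD1 rose by 3.77 ± 0.61 (limma adjusted p = 4.57e-05). The averaged progesterone difference of day 16 passed in 0.0958% of probe sets, or 23, and 0 of the 38 interferon-stimulated genes passed in limma. At an unadjusted p under 0.05, 4 of the 38 were higher, but the share of all probe sets at that level was not counted. The 4 are therefore not read as a progesterone response. The count of 23 was 0 with day 16 alone, 5740 with array weights, 1765 without the arrays far from their group mean and 1704 without those of narrow distribution. With each array left out in turn it ran from 5 without CN 5 to 198 without CH 2 of day 16, so no gene is named from it.

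Genes that mark the conceptus itself were at or near the floor on the arrays with high PLET1. Of 47 trophoblast genes listed, 34 were measured, and 32 of them were under 4 on every pregnant array of day 16. The exceptions were SSLP1 and ETS2, which were over 4 on 71 and 79 of all arrays. The 26 measured hormone, interferon and protease-family genes of trophoblast did not exceed 3.27 on any pregnant array of day 16. Among them the 16 pregnancy-associated glycoprotein (PAG) genes reached 3.22, IFNT2, a gene for interferon tau, 1.74, and TKDP1, a trophoblast Kunitz domain protein, 3.15. The mean of the 34 genes was 2.72 to 2.79 on PH arrays of day 16, 2.65 to 2.79 on PN, 2.68 to 2.85 on CH and 2.69 to 2.76 on CN, so the groups overlapped. None of the 34 passed in limma for pregnancy on day 16, and 0 had an unadjusted p under 0.05. The correlation of this list mean with PLET1 within the pregnant groups thus came from means between 2.65 and 2.79. With the 26 genes alone, an alternative chosen after seeing the data, r was 0.78.

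The genes next to PLET1 in the RefSeq annotation of cattle (ARS-UCD2.0) did not share its group pattern. The nearest measured genes were PTS, BCO2, TEX12, IL18 and SDHD on one side and NCAM1, DRD2, ZW10, USP28 and ZBTB16 on the other. Over the 16 group means their r with PLET1 lay between -0.54 for BCO2, a carotene-cleaving enzyme, and 0.30 for ZBTB16, a zinc finger transcription factor. Their day 16 pregnancy differences were small beside 3.40 for PLET1, with 0.27 ± 0.09 for PTS, an enzyme of tetrahydrobiopterin synthesis, and 0.31 ± 0.26 for IL18, a cytokine of the interleukin 1 family. Within groups over the 79 arrays r was 0.45 for IL18, 0.40 for PTS and 0.35 for TEX12, and -0.43 for USP28, a deubiquitinase. DLAT, a pyruvate dehydrogenase subunit with 9 protein-coding genes between it and PLET1, had r = 0.59, rank 12 of 9154, and is named after its values were seen. It read 8.59, 8.42, 8.46, 9.30 and 7.33 on the PH arrays of day 16 and 7.79 to 8.53 on the PN arrays, with PH 4 and PN 4 highest in their groups and PH 5 lowest of all.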

How the data were processed

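The deposited log2 expression values, 1 column per array, were used as given. RMA, GCRMA and limma are named per the submitters' processing notes, and which of the background corrections made these log2 values is not given in the sources used here. The 112 control probe sets were left out. Group means were fitted with limma 3.58.1 in R 4.3.3 over all 79 arrays (63 residual degrees of freedom, no replicate block), with Benjamini-Hochberg adjustment over 24016 probe sets. The probe set of highest mean stood for a gene. Correlations, given without a test, were computed in Python 3.11.15 with numpy 2.4.6 and pandas 2.3.3. PLET1, the lists and the rules were chosen with earlier results of these data known. Named genes were PLET1, measured neighbours (5 each side), the 8 most and 5 least like by group means, the 5 most like within groups, up to 3 called members with the largest change per list, and MX2, ISG15, DKK1, LGALS9, PGR and defining markers; other genes are marked, and the remaining called members of short lists are given for completeness. The labels name no shared animals, and p-values measure the spread between these heifers. Gene order in the RefSeq annotation was used only to find the neighbours of PLET1, and sequences were not used here. The fit was tested on simulated arrays with normal noise and 1 SD per probe set for all groups. That test does not cover the unequal spread of the real groups. The number of arrays limits the precision.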

Additional observations from a re-analysis of the deposited data

Results flagged for a closer look

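In 32 sets of arrays, 16 groups by 2 probe sets, the highest or lowest PLET1 value was set against the range of its group. In 7 of them the highest array stood apart by this rule, whose limit was set for 1 in 20 by chance. That rate does not hold here, since many values lie at a floor and both probe sets share the same hybridizations. PLET1 was also chosen on these values, so the count is a description and is not set against chance. CH 3 of day 5 read 5.17 in probe set 1 with the next array at 2.11, and 4.42 in probe set 2 with the next at 2.44. CH 4 of day 13 read 4.66 in probe set 2 with the next at 2.69, and CN 4 of day 16 read 3.69 in probe set 1 with the next at 2.24, but 2.39 in probe set 2. The other arrays that stood apart did so by small steps in probe set 2, CN 4 of day 13 at 2.76, CN 5 of day 16 at 2.60 and PN 1 of day 13 at 2.53, each with the next array at 2.40.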

How the results depend on the processing

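Of 497 values of 19 PLET1 differences under other settings, 7 moved by more than 1.24, the residual SD of single arrays in probe set 1. That limit is wider than the SEs of most of these differences, so smaller moves were not counted. Probe set 2 gave 1.84 for the interaction, 1.93 for PH minus PN and 3.21 for PH minus CH on day 16, and leaving out PH 5 of day 16 gave the remaining 4. With each array left out in turn, the interaction lay between 2.78 and 5.08, PH minus PN between 2.82 and 5.12, PH minus CH between 4.32 and 6.62, and the change in PH from day 13 to day 16 between 3.17 and 5.48. The replicate block gave 3.40 for pregnancy and 3.71 for the interaction on day 16, as without it. It moved no PLET1 difference by more than 1.24, and same-numbered arrays were not alike (mean r of deviations 0.0294, 0.0467, 0.0228 and -0.00919 on days 5, 7, 13 and 16). Probe sets above the median level leave out PLET1 and give no value. Probe sets that passed for pregnancy on day 16 numbered 759, against 374 with day 16 alone, 3663 with array weights, 488 without PH 4, 1273 without PH 5, and 488 to 1273 with each array left out. For progesterone on day 16, 23 passed, against 0 with day 16 alone, 13 with quantile normalization, 2 above the median level, 5740 with array weights, 1704 without arrays of narrow distribution, 1765 without arrays far from their group mean, and 5 to 198 with each array left out. For PN from day 13 to day 16, 429 passed, against 1183 with array weights and 263 to 453 with each array left out, 283 of them without PN 4 of day 16 and 263 without PN 1 of day 13. Within the pregnant groups of day 16, r without the 2 farthest arrays was 0.37 for interferon-stimulated genes, 0.62 for trophoblast, -0.77 for stroma, -0.48 for smooth muscle and -0.83 for endothelium. Without PH 5, an alternative chosen after seeing the data, these were 0.49, 0.77, -0.84, -0.60 and -0.62. For trophoblast r was 0.55 with quantile normalization and 0.65 with probe set 2. Over all arrays, omission of the pregnant arrays of day 16, chosen after seeing the data, gave 0.29 for interferon-stimulated genes, 0.27 for trophoblast, -0.19 for stroma, -0.10 for endothelium and 0.50 for leukocytes. The rho for leukocytes was 0.33 there, and over all arrays the leukocyte r was 0.28 without the farthest arrays. For trophoblast r was 0.17 with quantile normalization and 0.20 without the farthest arrays, for endothelium -0.24 without PH 5 and -0.27 with quantile normalization, and for smooth muscle -0.22 without the farthest arrays and -0.20 with probe set 2. Apart from the omissions, where fewer arrays were used, the cause of these changes was not tested. Signals near the floor limit what differences between most groups can show.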
